A study of Mus musculus with 14 samples.

Results

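The Serpina3 cluster is a tandem array of serine protease inhibitor genes on mouse chromosome 12. Its members here were the 10 rows of the expression table named Serpina3b, Serpina3c, Serpina3f, Serpina3g, Serpina3h, Serpina3i, Serpina3j, Serpina3k, Serpina3m and Serpina3n. These are 10 of 24035 genes, and all 10 were among the 14693 genes tested, those that reached 1 TPM in 3 or more samples. TPM (transcripts per 1000000 transcripts) divides reads by gene length and scales each sample to the same total, so levels of different copies can be set side by side. The rows were taken by name, and the family itself was chosen by the measured TPM of its copies in these samples, which were known to differ between the groups and to move in opposite directions. Every difference given for a copy is therefore a description, with its standard error and with whether it passed the threshold used for all genes, and it is no independent evidence.

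The samples were whole mouse ears in 4 groups. All came from mice depleted of Langerhans cells, the antigen-presenting dendritic cells that reside in the epidermis. In the LC-DTA genotype the ablation was long term. In the LC-DTR genotype it was short term, 3 days after diphtheria toxin (DT). In both genotypes 20 µl of vehicle (acetone and olive oil), or of 1% croton oil in it, was applied to the ear, front and back, and the exposure lasted 6 h. Croton oil contains phorbol esters and irritates the skin. There were 3 vehicle and 4 croton oil samples in each genotype. Genotype and the duration of ablation go together, so their effects cannot be told apart. Whether LC-DTA mice also received the toxin is not stated, so exposure to it may go with genotype in every genotype comparison. Ages, strain background, the promoter that drives each transgene, and whether each sample was a separate animal are not given in the labels used here. The errors therefore rest on the spread between these samples, which may be technical. Standard errors of differences come from 1 fit that pools the spread within all 4 groups and draws it toward that of other genes. They are not the spread of the compared groups alone. Ears with intact Langerhans cells were not analysed here. Whole tissue mixes cell types, and fewer cells of a type and less RNA per cell cannot be told apart.

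Serpins inhibit proteases by offering a flexible reactive centre loop as bait. The protease cuts the loop, the loop folds into the body of the serpin, and the protease is trapped in a covalent complex. The start of the loop, called the hinge, has to be mobile for this and is typically built from small residues. The stretch around the cut site sets which protease is taken. Humans have SERPINA3, whose product α1-antichymotrypsin is an acute phase plasma protein that inhibits cathepsin G and mast cell chymase, and in the mouse the locus has expanded into a cluster.

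The members spanned 286.3 kb, chr12:104127996-104414329 on GRCm38 in the GENCODE M21 annotation. All but 1 lie on the plus strand and Serpina3c lies on the minus strand. The annotation lists 14 Serpina3 copies, and the 4 that were not members are Serpina3a and 3 pseudogenes. Serpina3h is itself annotated as a transcribed unprocessed pseudogene. The coding stretch of the reactive centre loop shows how far the copies have come apart, and it is printed for the copies that differ most in the results, with the codons of the hinge in capitals, the first 24 bases of each.
Serpina3b: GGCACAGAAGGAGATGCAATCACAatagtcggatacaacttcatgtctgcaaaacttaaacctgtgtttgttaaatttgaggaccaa
Serpina3j: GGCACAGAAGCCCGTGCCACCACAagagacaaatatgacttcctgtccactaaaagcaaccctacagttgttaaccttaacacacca
Serpina3c: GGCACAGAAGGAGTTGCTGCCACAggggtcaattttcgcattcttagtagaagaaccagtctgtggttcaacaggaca
Serpina3k: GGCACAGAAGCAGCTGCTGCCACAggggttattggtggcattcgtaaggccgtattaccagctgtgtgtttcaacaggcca
Serpina3m: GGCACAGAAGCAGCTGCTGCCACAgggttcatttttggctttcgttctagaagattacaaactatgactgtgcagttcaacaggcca
Serpina3n: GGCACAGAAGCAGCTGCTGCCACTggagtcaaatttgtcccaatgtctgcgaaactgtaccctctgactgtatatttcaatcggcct
These exonic coding stretches lie at chr12:104138665-104138751 (Serpina3b), chr12:104319686-104319772 (Serpina3j), chr12:104345269-104345349 (Serpina3k), chr12:104393769-104393855 (Serpina3m) and chr12:104413448-104413534 (Serpina3n) on the plus strand, and at chr12:104147310-104147387 (Serpina3c) on the minus strand. Over the 45 pairs of copies, the hinge codons were 70.8 to 100% identical, with a median of 87.5%. The rest of the loop was 43.1 to 87.3% identical, with a median of 54.5%. Transcripts were 69.3 to 93.9% identical, with a median of 77.8%, over the best-matching stretch that a local alignment kept. This stretch was 837 bases for Serpina3g and Serpina3h, so it is not the whole transcript. The rest of the loop was instead aligned end to end. The loop and transcript shares are therefore unlike measures, and which part differed more cannot be read from them. Serpina3k and Serpina3m had the same hinge codons and were 65.1% identical over the rest of the loop. The hinge codons of Serpina3b include ATC (isoleucine) and those of Serpina3j CGT (arginine), which are not small residues. Whether each copy inhibits a protease was not tested.

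Promoter windows of 250 bases before the annotated start were matched in RefSeq on GRCm38.p6 for 7 members. Serpina3h, Serpina3k and Serpina3m were not matched. The window of Serpina3c, chr12:104153873-104154122 on the minus strand, and that of Serpina3n, chr12:104406458-104406707 on the plus strand, were 90.5% identical, and the next pair, Serpina3b and Serpina3n, was 69.0% identical. They are printed because both genes had higher levels after croton oil in LC-DTR ears, with opposite changes of Serpina3c and Serpina3n in LC-DTA ears. Capitals mark the 21 bases in each window that differ or have no partner.
Serpina3c: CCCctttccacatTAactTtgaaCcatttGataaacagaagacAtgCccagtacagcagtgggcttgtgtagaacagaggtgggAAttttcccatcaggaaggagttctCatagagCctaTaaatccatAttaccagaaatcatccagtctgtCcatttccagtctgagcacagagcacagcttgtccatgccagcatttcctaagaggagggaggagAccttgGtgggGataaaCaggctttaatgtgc
Serpina3n: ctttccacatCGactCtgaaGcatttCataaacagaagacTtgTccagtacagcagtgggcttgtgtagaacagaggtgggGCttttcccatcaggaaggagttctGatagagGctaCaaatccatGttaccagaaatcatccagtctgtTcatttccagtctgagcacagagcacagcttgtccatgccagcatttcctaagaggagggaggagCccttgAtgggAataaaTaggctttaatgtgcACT
Windows around the letters TTCNNNGAA, the core bound by STAT factors, are printed for the 3 copies that held it, with the match in capitals. The match began 121 bases before the start in Serpina3f (chr12:104214403-104214451), 33 bases before it in Serpina3g (chr12:104236094-104236142) and 102 bases before it in Serpina3i (chr12:104263000-104263048), all on the plus strand.
Serpina3f: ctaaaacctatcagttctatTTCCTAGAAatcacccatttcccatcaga
Serpina3g: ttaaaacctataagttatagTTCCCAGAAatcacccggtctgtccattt
Serpina3i: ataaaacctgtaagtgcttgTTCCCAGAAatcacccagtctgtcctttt
Of the 32851 promoter entries, 7.02% held these letters, which read the same on both strands. The 8 entries of the members, with Serpina3f listed under 2 overlapping starts, held them in 4. The AP-1 letters TGANTCA, searched on both strands, were in 6.75% of all entries and in 0 of the 8. A match of letters is a description and not a binding site.

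Because the copies resemble each other, short reads can fit more than 1 of them. The share of 50-base runs of a transcript that also occur in another copy was 2.92% for Serpina3b, 3.13% for Serpina3j, 4.25% for Serpina3c and 6.90% for Serpina3n. These 4 copies shared the least. The share was 10.6% for Serpina3f, 14% for Serpina3k, 15.4% for Serpina3i, 15.5% for Serpina3g, 19.1% for Serpina3m and 20.5% for Serpina3h. Copies were therefore also summed where at least 10% of the runs of 1 copy occurred in 1 other member. This joined Serpina3g and Serpina3i through Serpina3h, and Serpina3k with Serpina3m. Serpina3f was not joined, because its runs were shared with several copies and the highest share in a pair was 6.29%, of the runs of Serpina3g. The annotated exons of Serpina3k and Serpina3m also overlap by 60 bases. How the authors counted reads that fit several copies is not stated in the sources used here, so single values within a sum are uncertain. If such reads were left out, the sums miss them as well.

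**Figure D1:**
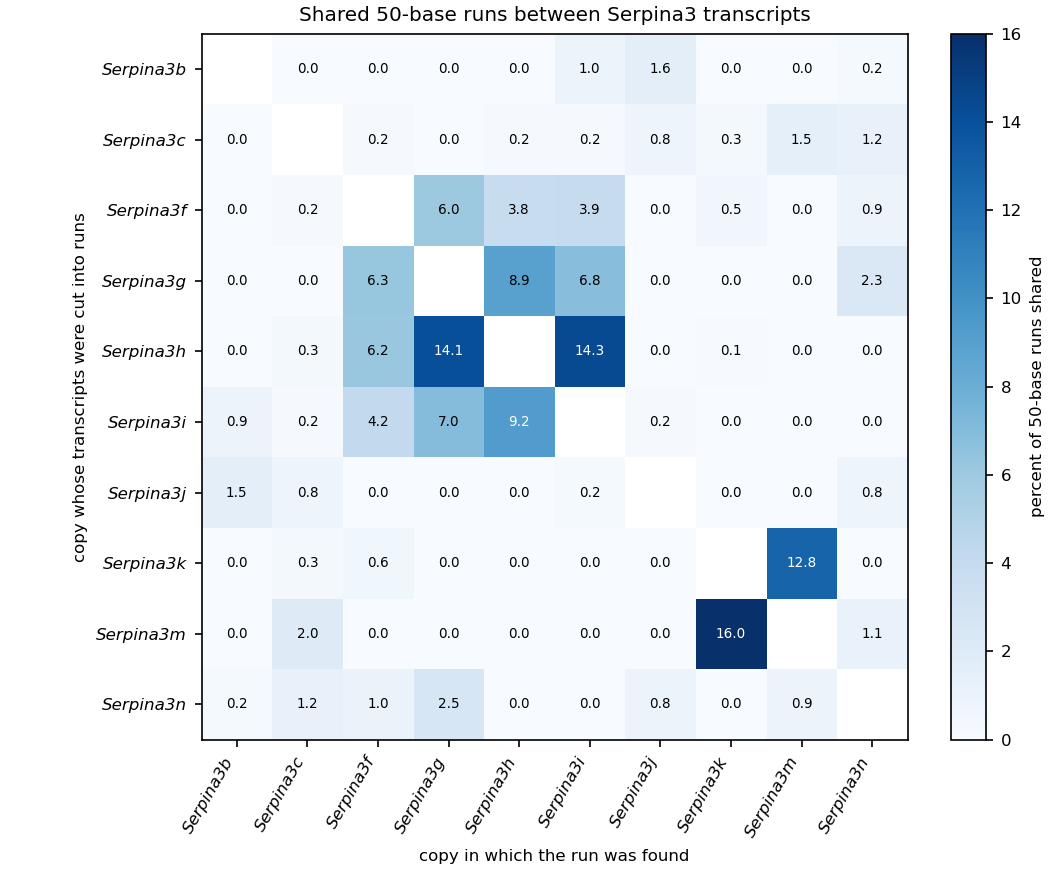
Percent of the 50-base runs of each transcript (rows) that also occur in each other copy (columns), from the GENCODE M21 transcripts. Serpina3h shared 20.5% of its runs with any other copy, the highest share, and Serpina3b 2.92%, the lowest.

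Each sample summed to 1000000 TPM, and 13733 to 14332 genes reached 1 TPM in a sample. The read depth behind the values is unknown. The LC-DTR croton oil group was uneven. On the first principal component of all genes, which held 50.5% of the variance, its samples 2 and 3 scored 5.26 and 8.06, and its samples 1 and 4 scored 28.5 and 28.6. Its sample 3 also had the highest levels of 5 of 6 hepatocyte markers, with Alb at 18.8 TPM against at most 2.66 in any other sample. Of the 10 copies, 0 were highest in that sample within its group, and no copy called for croton oil in LC-DTR lost its call without it. Serpina3k, contrapsin, is made in quantity by liver, and its level there was 2.77 TPM among 1.35 to 4.43 in the group. Of the 6 markers, Ttr was high in every sample of the group, at 5.15, 4.78, 7.14 and 4.85 TPM. It was at most 1.07 TPM in the other groups. Leaving out sample 3 does not address this, and the part of such RNA in the levels of the copies was not tested.

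The summed TPM of the family was higher after croton oil than under vehicle in LC-DTR ears and lower in LC-DTA ears. The makeup of the family differed by genotype and treatment. The summed level of the 10 copies was 307 ± 55.2 TPM (SD, n = 3) in LC-DTR vehicle ears and 574 ± 162 (n = 4) after croton oil. In LC-DTA ears it was 619 ± 16.8 (n = 3) under vehicle and 436 ± 45.6 (n = 4) after croton oil. The ranges of the vehicle and croton oil samples did not overlap in either genotype, and the direction was opposite. The sum follows its most abundant copies. In LC-DTA ears Serpina3b and Serpina3j together went from 491 TPM under vehicle to 273 after croton oil. Of the single copies there, 3 were called higher, 3 lower and 4 not called, where 58.7% of all genes tested were called.

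Under vehicle, Serpina3b and Serpina3h led in LC-DTR ears at 97.4 ± 71.0 and 96.0 ± 22.8 TPM, a difference within their spread, and Serpina3b and Serpina3j led in LC-DTA ears at 307 ± 18.1 and 184 ± 9.92 TPM. After croton oil, Serpina3n led in LC-DTR ears at 252 ± 81.1 TPM, ahead of Serpina3h at 165 ± 33.9. In LC-DTA ears Serpina3b remained first at 189 ± 27.9 TPM and Serpina3j followed at 84.4 ± 25.7. Serpina3n at 67.6 ± 10.8 and Serpina3h at 65.4 ± 7.94 were within the spread of Serpina3j. In LC-DTA croton oil sample 4, Serpina3j at 59.3 TPM was below Serpina3n at 77.0 and Serpina3h at 76.2. Serpina3b and Serpina3j together made up 45.6% of the family in LC-DTR vehicle ears, 12.1% after croton oil, 79.4% in LC-DTA vehicle ears and 62.4% after croton oil. Serpina3n made up 13.8, 43.7, 5.55 and 15.6% in the same order.

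**Figure D2:**
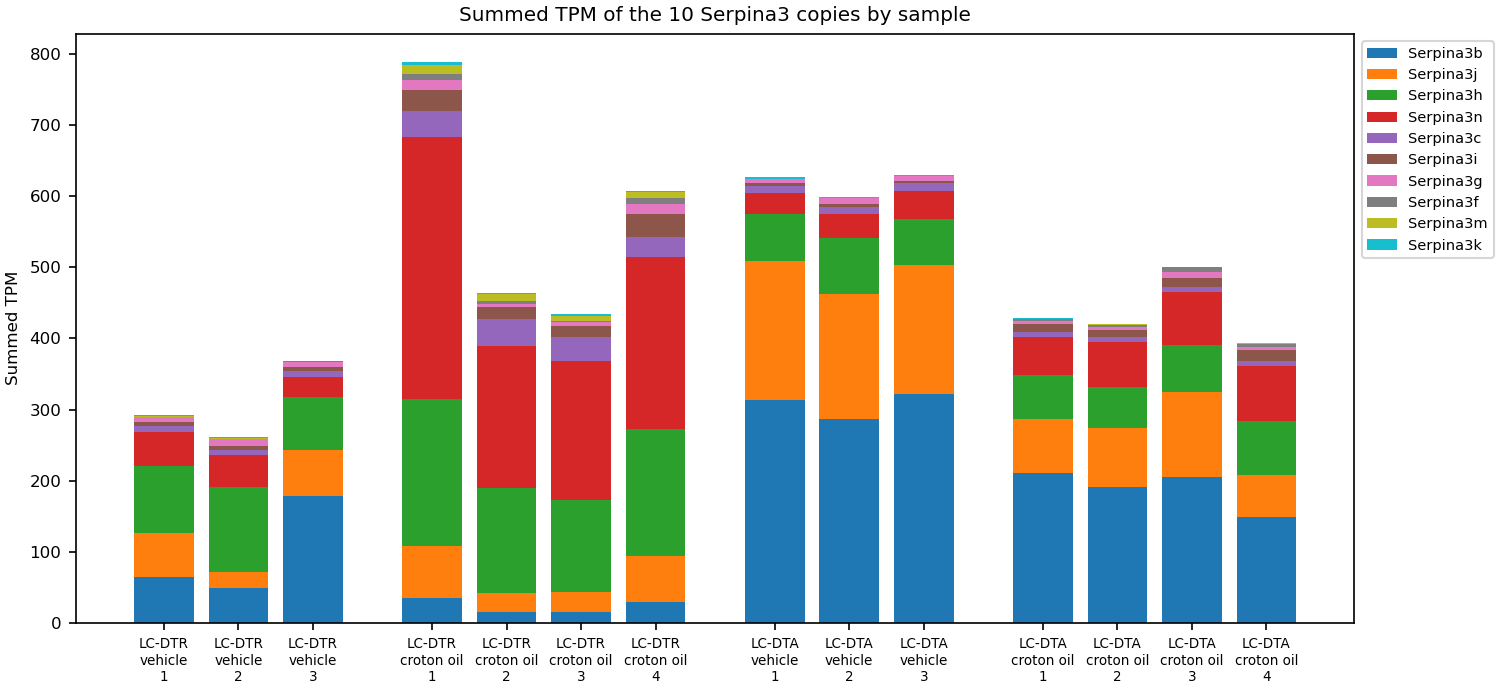
Summed TPM of the 10 copies in each of the 14 samples, stacked by copy. Serpina3b and Serpina3j fill most of each LC-DTA column (79.4% under vehicle on average), and Serpina3n is the largest block after croton oil in LC-DTR ears (43.7%).

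Serpina3b and Serpina3j had their highest group mean in LC-DTA vehicle ears. Serpina3b was at 64.2, 49.0 and 179 TPM in the LC-DTR vehicle samples and at 314, 287 and 321 in the LC-DTA vehicle samples. After croton oil it was at 34.4, 15.1, 15.8 and 28.6 TPM in LC-DTR and at 211, 191, 204 and 149 in LC-DTA. Every LC-DTA sample was above every LC-DTR sample under the same treatment, and the single high LC-DTR value was vehicle sample 3. The difference between genotypes was 1.88 ± 0.39 on the log2(TPM + 1) scale under vehicle and 3.03 ± 0.33 after croton oil, and both passed the threshold. Serpina3b fell by 1.86 ± 0.36 with croton oil in LC-DTR ears, and its difference of -0.71 ± 0.36 in LC-DTA ears did not pass in the fit of all 14 samples. The LC-DTA groups did not overlap, and the same difference passed in a fit of only the 2 compared groups and without LC-DTR vehicle sample 3. The 2 responses of Serpina3b differed by 1.15 ± 0.51, which did not pass but did without LC-DTR vehicle sample 2.

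Serpina3j was at 61.6, 23.1 and 64.5 TPM in LC-DTR vehicle samples and at 195, 176 and 181 in LC-DTA vehicle samples. After croton oil it was at 73.9, 27.0, 28 and 65.8 TPM in LC-DTR and at 75.5, 82.8, 120 and 59.3 in LC-DTA. The genotypes were apart under vehicle and overlapped after croton oil. The difference between genotypes under vehicle was 2.0 ± 0.42, and Serpina3j fell by 1.16 ± 0.39 with croton oil in LC-DTA ears, against -0.04 ± 0.39 in LC-DTR ears. The call in LC-DTA ears was lost without LC-DTA vehicle sample 1 (-1.12) and without LC-DTA croton oil sample 4 (-1.01). The difference between genotypes after croton oil, 0.88 ± 0.36, did not pass, but did without LC-DTR vehicle sample 2 or without croton oil sample 1 or 4 of LC-DTR or sample 4 of LC-DTA.

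Fibroblast markers were also higher in LC-DTA ears. The 7 markers summed to 2286 to 5183 TPM under vehicle and 2353 to 3430 after croton oil in LC-DTR ears, and to 7431 to 9261 and 4825 to 6433 in LC-DTA ears. LC-DTR vehicle sample 3, high in Serpina3b, had the highest fibroblast sum of its group. It was also highest there in keratinocyte, hair follicle, adipocyte, endothelial, macrophage and mast cell sums. It was not the highest in cartilage, muscle, neutrophil, T cell or hepatocyte sums. Among the LC-DTR croton oil samples the fibroblast sums were 2693, 3430, 3207 and 2353 TPM. They went opposite to Serpina3b, which was higher in samples 1 and 4. Of the 7 fibroblast markers, 7 were higher in LC-DTA under vehicle and 6 after croton oil, and none was at 0. Mast cell (7 of 8), macrophage and monocyte (4 of 6) and endothelial markers (4 of 7) were also higher in LC-DTA under vehicle. The part of these markers in the result was not tested.

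**Figure D3:**
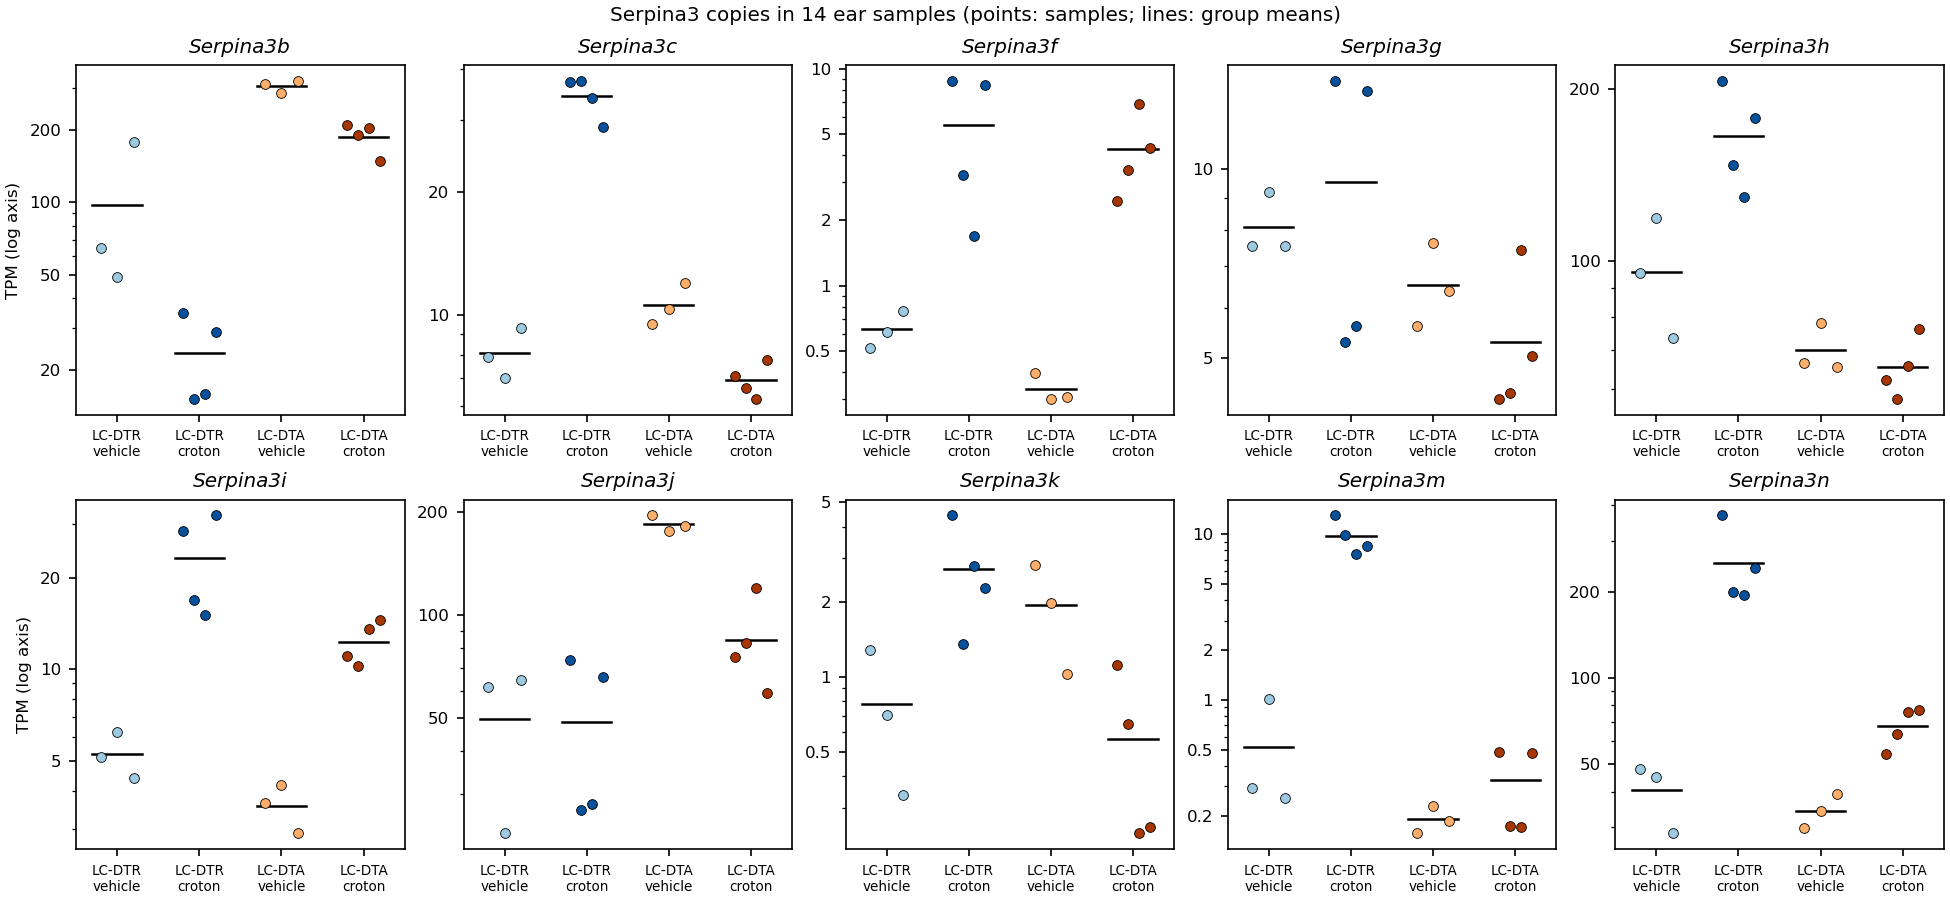
TPM of each copy (log axis) in the 4 groups, with 1 point for each sample and lines at group means. Serpina3b and Serpina3j have their highest mean in LC-DTA vehicle ears, and the other 8 copies in LC-DTR croton oil ears.

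The other 8 copies had their highest group mean in LC-DTR ears after croton oil, and Serpina3n, Serpina3c, Serpina3m and Serpina3k are described first. Serpina3n, often taken as the mouse counterpart of human SERPINA3, is an acute phase gene whose product inhibits granzyme B and leukocyte elastase. Its values were 47.9, 45.0 and 28.7 TPM in LC-DTR vehicle and 369, 200, 195 and 242 in LC-DTR croton oil samples. In LC-DTA it was at 29.8, 34.1 and 39.2 TPM under vehicle and at 54.2, 63.6, 75.6 and 77.0 after croton oil. Croton oil samples were above vehicle samples in both genotypes, and every LC-DTR croton oil sample was above every LC-DTA one. Serpina3n rose by 2.59 ± 0.22 in LC-DTR and by 0.95 ± 0.22 in LC-DTA ears, and the 2 responses differed by -1.64 ± 0.31, LC-DTA minus LC-DTR. Between genotypes the difference was -0.21 ± 0.23 under vehicle, not past the threshold, and -1.85 ± 0.20 after croton oil.

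Serpina3c was at 7.91, 7.01 and 9.28 TPM in LC-DTR vehicle and at 37.2, 37.4, 34.0 and 28.9 in LC-DTR croton oil samples. In LC-DTA it was at 9.51, 10.3 and 11.9 TPM under vehicle and at 7.11, 6.64, 6.24 and 7.76 after croton oil. The ranges did not overlap in either genotype, and they were ordered the opposite way. Serpina3c rose by 1.96 ± 0.11 in LC-DTR and fell by 0.55 ± 0.11 in LC-DTA ears, and the responses differed by -2.51 ± 0.16. After croton oil the genotypes differed by -2.15 ± 0.11.

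Serpina3m was at 0.293, 1.01 and 0.257 TPM in LC-DTR vehicle and at 12.9, 9.79, 7.62 and 8.43 in LC-DTR croton oil samples. In LC-DTA it stayed under 0.5 TPM in all 7 samples. It reached 1 TPM in the 4 LC-DTR croton oil samples and in 1 vehicle sample, so it passed the filter on low values through the group where it was high. It rose by 2.83 ± 0.18 in LC-DTR ears, with 0.15 ± 0.18 in LC-DTA ears, and after croton oil the genotypes differed by -3.0 ± 0.17, with -0.32 ± 0.20 under vehicle. The responses differed by -2.68 ± 0.26.

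Serpina3k was at 1.29, 0.705 and 0.335 TPM in LC-DTR vehicle and at 4.43, 1.35, 2.77 and 2.27 in LC-DTR croton oil samples. In LC-DTA it was at 2.80, 1.98 and 1.03 TPM under vehicle and at 1.11, 0.650, 0.237 and 0.250 after croton oil. The LC-DTR groups did not overlap and the LC-DTA groups did. Serpina3k rose by 1.03 ± 0.29 in LC-DTR and fell by 0.90 ± 0.29 in LC-DTA ears, and the responses differed by -1.93 ± 0.41. The fall in LC-DTA ears was not called without LC-DTA vehicle sample 1 (-0.69) or sample 2 (-0.86). Summed with Serpina3m, the level was 1.29 TPM on average under vehicle and 12.4 after croton oil in LC-DTR ears, and 2.12 and 0.890 in LC-DTA ears. The sum rose by 2.56 ± 0.26 in LC-DTR and fell by 0.72 ± 0.26 in LC-DTA ears.

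Serpina3g, Serpina3h and Serpina3i are the copies joined by shared reads, and Serpina3f is their neighbour. Serpina3h was at 95.3, 119 and 73.5 TPM in LC-DTR vehicle and at 206, 147, 129 and 178 in LC-DTR croton oil samples. In LC-DTA it was at 66.5, 78.1 and 65.4 TPM under vehicle and at 62.0, 57.6, 65.8 and 76.2 after croton oil. The LC-DTR groups did not overlap and the LC-DTA groups did, as did the genotypes under vehicle. Serpina3h rose by 0.78 ± 0.17 in LC-DTR ears, and its difference in LC-DTA ears was -0.10 ± 0.17. Between genotypes the difference was -0.43 ± 0.18 under vehicle, which did not pass (it did after median ratio scaling, at -0.55, and without LC-DTR vehicle sample 3), and -1.31 ± 0.15 after croton oil, which did. The responses differed by -0.88 ± 0.24, a call lost without LC-DTA vehicle sample 2 (-0.80).

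Serpina3i was at 5.15, 6.25 and 4.41 TPM under vehicle and at 28.5, 16.9, 15.1 and 32.1 after croton oil in LC-DTR ears. In LC-DTA ears it was at 3.63, 4.17 and 2.90 TPM under vehicle and at 11.0, 10.2, 13.6 and 14.5 after croton oil, so the groups did not overlap in either genotype. Serpina3i rose in both genotypes, by 1.89 ± 0.23 and 1.54 ± 0.23, and was lower in LC-DTA after croton oil (-0.80 ± 0.21). Under vehicle the genotypes did not overlap either, and their difference of -0.46 ± 0.24 did not pass. The responses of Serpina3i differed by -0.34 ± 0.32, which did not pass. Serpina3f was at 0.302 to 0.763 TPM in the 6 vehicle samples and at 1.69 to 8.76 in the 8 croton oil samples, so it passed the filter through the croton oil groups. It rose by 1.81 ± 0.38 in LC-DTR and 1.91 ± 0.38 in LC-DTA ears, and the genotypes differed by -0.29 ± 0.40 under vehicle and -0.18 ± 0.35 after croton oil, neither past the threshold. Serpina3g, an intracellular inhibitor of lysosomal cysteine cathepsins, was at 4.30 to 13.8 TPM over the 14 samples, with differences of 0.10 ± 0.28 and -0.28 ± 0.28 that did not pass. It was lower in LC-DTA after croton oil (-0.65 ± 0.26), a call lost without any 1 of 11 of the 14 samples, with -0.45 as the smallest of those differences, and it was -0.066 without LC-DTR croton oil samples 1 and 4 together.

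If shared reads were split among Serpina3g, Serpina3h and Serpina3i, the sum of the 3 depends less on how this was done. The sum was 109 TPM on average under vehicle and 198 after croton oil in LC-DTR ears, and 80.1 and 83.0 in LC-DTA ears. It rose by 0.84 ± 0.17 in LC-DTR ears, with 0.05 ± 0.17 in LC-DTA ears, and the responses differed by -0.80 ± 0.25. Within the sum, Serpina3i rose in LC-DTA ears while Serpina3h and Serpina3g did not pass.

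Samples 1 and 4 of LC-DTR croton oil were above samples 2 and 3 for 7 of the 10 copies. The ratio of their means was 3.47 for Serpina3f, 2.54 for Serpina3j, 2.49 for Serpina3g, 2.04 for Serpina3b, 1.90 for Serpina3i, 1.55 for Serpina3n and 1.39 for Serpina3h. Serpina3c, Serpina3k and Serpina3m did not divide this way. The first principal component of all genes set the same samples apart, and the share of all genes that divide this way was not counted. The count of copies is therefore not read as particular to the family. The sum of 8 neutrophil markers in these samples was 1022, 524, 477 and 931 TPM, so it divided the same way as the 7 copies. Over all groups it was 139 to 211 TPM under vehicle and 477 to 1022 after croton oil in LC-DTR ears, and 104 to 142 and 598 to 829 in LC-DTA ears, with 8 of 8 markers higher after croton oil in both genotypes. Il1f9, which keratinocytes also make, held most of the vehicle sums. Without it the other 7 markers summed to 25.9 to 68.8 TPM under vehicle and 262 to 770 after croton oil in LC-DTR ears, and to 33.9 to 65.1 and 445 to 673 in LC-DTA ears. Samples 1 and 4 of LC-DTR croton oil were still above samples 2 and 3, at 770 and 727 against 339 and 262 TPM. In that group Cxcr2 averaged 52.2 TPM and Retnlg 35.0, a small part of these sums. The list also held S100a8 and S100a9, and which cells made the RNA of each marker was not tested. The sums are therefore not a measure of neutrophils alone. The part of these markers in the levels of the copies was not tested.

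**Figure D4:**
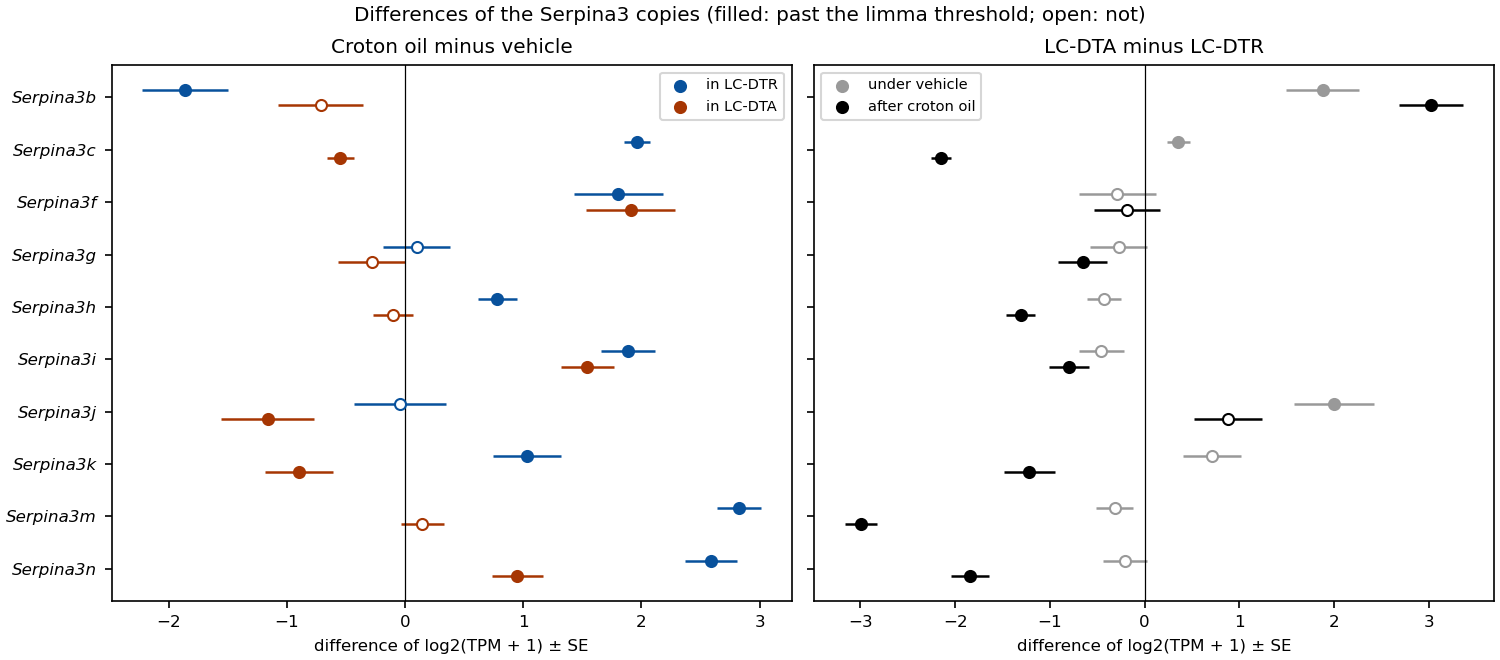
Log2 differences of each copy, with bars of 1 standard error; filled points passed limma's adjusted threshold and open points did not. The left panel gives croton oil minus vehicle in each genotype, and the right panel LC-DTA minus LC-DTR under each treatment. Serpina3c and Serpina3k rose in LC-DTR and fell in LC-DTA ears.

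Across the family, croton oil in LC-DTR ears gave 7 copies called higher, 1 lower and 2 not called, where 51.6% of all genes tested were called (22.1% higher and 29.5% lower). In LC-DTA ears 3 were higher, 3 lower and 4 not called, where 58.7% of genes were called (24.2% higher and 34.5% lower). Under vehicle 3 copies were higher in LC-DTA and 0 lower, where 24.5% of genes were called (19.1% higher and 5.34% lower), and after croton oil 1 was higher and 7 lower, where 52.3% were called (34.3% higher and 18% lower). For the difference of responses 5 were lower and 0 higher, where 23.1% were called (10.5% higher and 12.6% lower). At an unadjusted p under 0.05, limma gave 1 copy lower under vehicle and 1 higher for the difference of responses, the directions that had 0 calls. The comparisons that share groups are not independent of each other.

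The median difference of the copies was 1.42 for croton oil in LC-DTR and -0.19 in LC-DTA ears, against -0.06 and -0.09 over all genes. Between genotypes it was -0.24 under vehicle and -1.01 after croton oil, against 0.10 and 0.09 over all genes. The groups did not overlap for 8, 6, 6 and 7 of the 10 copies in these 4 comparisons, where 47.7, 63.0, 42.5 and 45.2% of genes did not overlap. Croton oil gave opposite calls in the genotypes for Serpina3c and Serpina3k, and higher calls in both for Serpina3f, Serpina3i and Serpina3n. The shares of all genes with such joint calls were not counted, so these copies are only named. Serpina3b and Serpina3j were called higher in LC-DTA under vehicle with Serpina3c, whose difference of 0.36 ± 0.12 lost its call without any 1 of 9 of the 14 samples, and at 0.25 and 0.18 after median ratio scaling and quantile normalization.

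The copies also differed in pattern across samples. Serpina3f and Serpina3i had the smallest mean absolute difference of centred log2 levels over the 14 samples, at 0.30, followed by Serpina3g and Serpina3h at 0.31 and Serpina3i and Serpina3n at 0.40. Serpina3b and Serpina3m were the farthest apart at 2.50. Outside the family, by the same measure, the genes most like Serpina3n were Mt1 at 0.20, Pdk4 at 0.26 and Otud7a at 0.31 among 1153 candidates. For Serpina3h they included Dlk2 at 0.15 and Dusp14 at 0.16 among 5613. For Serpina3b they were Col3a1 at 0.48, Sfrp2 at 0.49 and Serpinb1c at 0.49 among 468. Candidates were tested genes outside the family whose SD over the 14 samples reached a set share of the SD of the copy. Predicted Gm genes and Rik clones were passed over. Mt1, a metal-binding metallothionein, was at 620 ± 230 TPM under vehicle and 4035 ± 1280 after croton oil in LC-DTR ears, and at 525 ± 61.8 and 1122 ± 277 in LC-DTA ears, the order of means that Serpina3n had. Col3a1, a fibrillar collagen, was at 639 ± 588 TPM under vehicle and 282 ± 98.3 after croton oil in LC-DTR ears. In LC-DTA ears it was at 1923 ± 356 and 1266 ± 272, the order of means that Serpina3b had. Mt1 is also in the glucocorticoid-induced list below and Col3a1 among the fibroblast markers, so these are not separate observations.

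**Figure D5:**
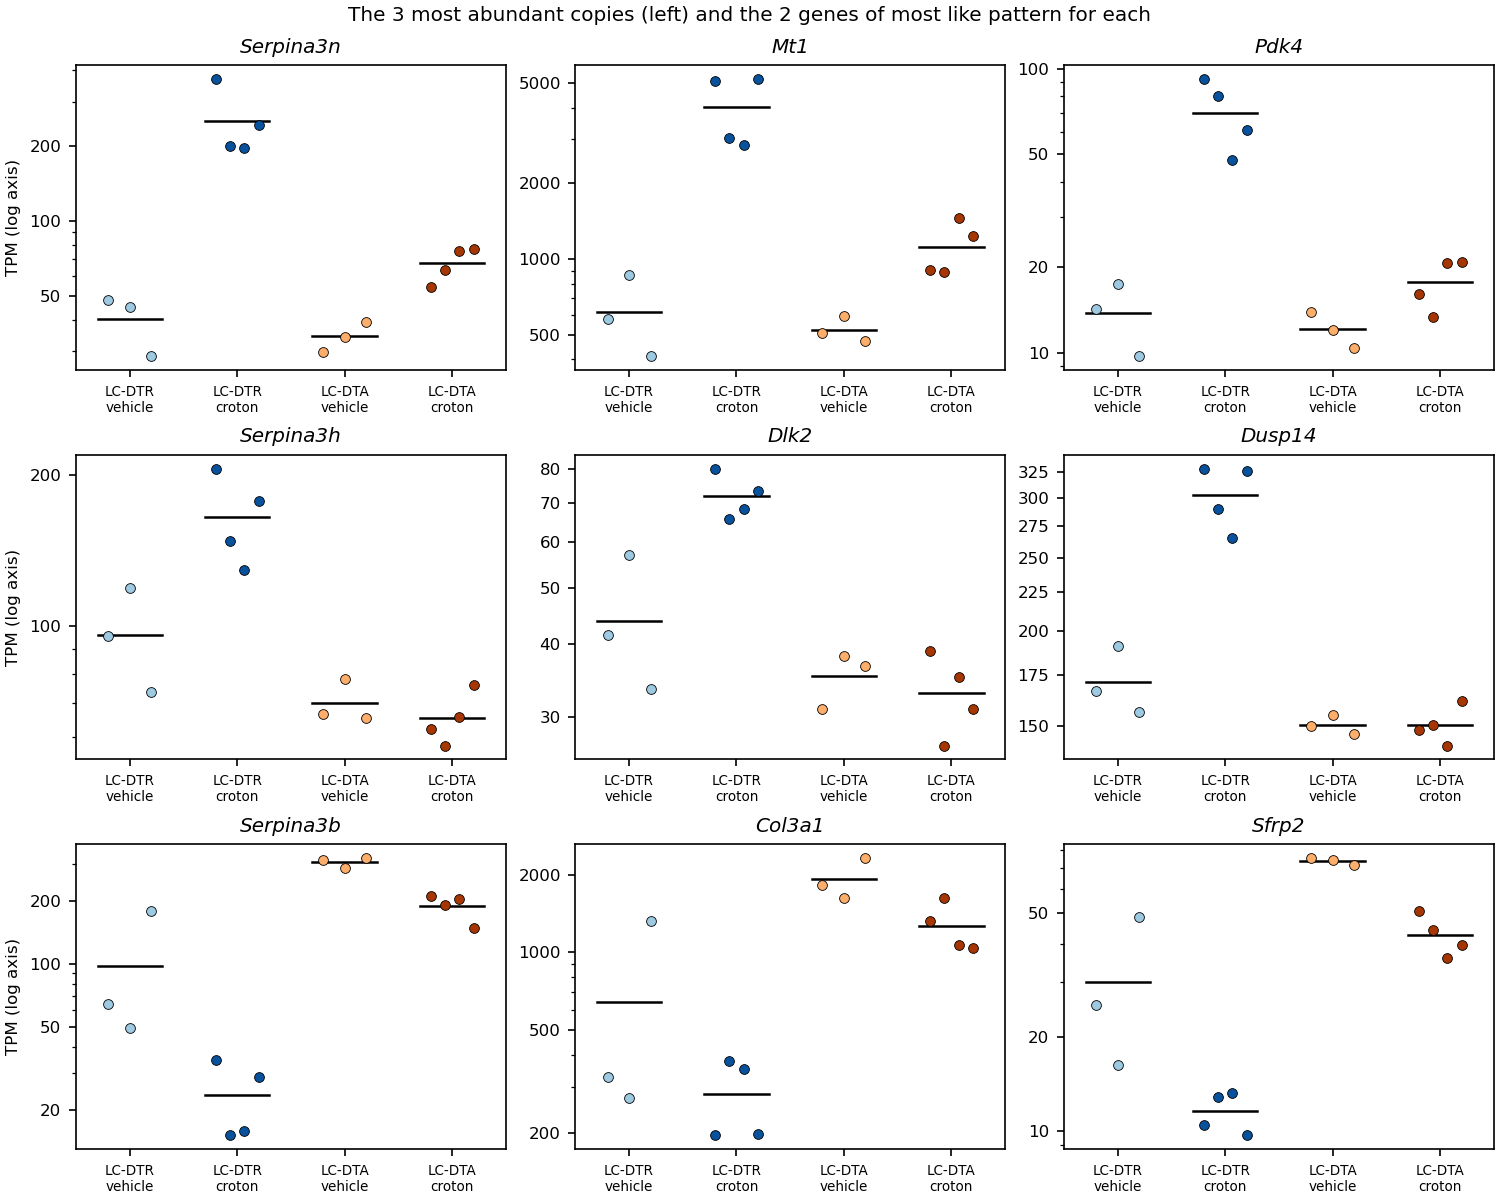
TPM of Serpina3n, Serpina3h and Serpina3b with 2 of the genes most like each, by sample and group. Serpina3n and Mt1 are both highest in LC-DTR croton oil ears, and Serpina3b and Col3a1 in LC-DTA vehicle ears.

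Other genes of the same biology were read from lists, and p-values below are limma's, adjusted over all genes. Of 12 genes listed as glucocorticoid-induced, 9 were higher and 1 lower with croton oil in LC-DTR ears, and 3 higher and 7 lower in LC-DTA ears. The 1 lower in LC-DTR ears was Nr3c1 (-0.73 ± 0.12), which encodes the glucocorticoid receptor itself. After croton oil, 10 of the 12 were lower and 1 higher in LC-DTA than in LC-DTR, and the responses differed for 9, all lower in LC-DTA. Fkbp5, a cochaperone of the glucocorticoid receptor, rose by 1.94 ± 0.22 in LC-DTR ears (limma adjusted p = 1.88e-05) and was lower in LC-DTA than in LC-DTR after croton oil (-2.66 ± 0.21, limma adjusted p = 1.37e-06). Under vehicle 1 of the 12 was lower, Tsc22d3.

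Of 25 acute phase and gp130-STAT3 genes tested, 19 were higher and 1 lower with croton oil in LC-DTR ears, and 16 higher and 3 lower in LC-DTA ears. Il6 rose by 2.94 ± 0.24 in LC-DTR (limma adjusted p = 1.81e-06) and by 3.98 ± 0.24 in LC-DTA ears (limma adjusted p = 3.39e-07). Between genotypes 6 were higher and 2 lower under vehicle, and 5 higher and 10 lower after croton oil. Responses differed for 10, 3 higher and 7 lower in LC-DTA. Of 19 interferon gamma induced genes, 2 were higher and 3 lower in LC-DTR ears, 3 higher and 1 lower in LC-DTA ears, and 2 were higher in LC-DTA after croton oil. By limma 0 were called between genotypes under vehicle, with 0 at an unadjusted p under 0.05, and 0 for the difference of responses, with 1 at an unadjusted p under 0.05.

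Proteases, the targets of serpins, were read from the same fit. Of 9 serine proteases of leukocytes and mast cells, 1 was higher and 1 lower with croton oil in LC-DTR ears and 3 higher and 2 lower in LC-DTA ears. In LC-DTA ears 4 were higher under vehicle and 7 after croton oil, and none was lower. Gzmb, which Serpina3n inhibits, rose by 2.45 ± 0.21 in LC-DTR (limma adjusted p = 2.00e-06) and by 3.48 ± 0.21 in LC-DTA ears (limma adjusted p = 2.78e-07), while Serpina3n rose more in LC-DTR. Cma1, mast cell chymase, was higher in LC-DTA by 1.12 ± 0.19 under vehicle (limma adjusted p = 0.00150) and by 0.96 ± 0.17 after croton oil (limma adjusted p = 0.000327). Of 10 lysosomal cysteine cathepsins, 2 were higher in LC-DTR ears, 1 higher and 5 lower in LC-DTA ears, 5 higher in LC-DTA under vehicle, and 5 higher and 5 lower after croton oil.

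Of the other clade A serpins, 2 of 13 found were tested. Serpina9 rose by 1.66 ± 0.28 in LC-DTR and 2.21 ± 0.28 in LC-DTA ears, and Serpina12 was lower in LC-DTA under vehicle (-0.63 ± 0.15) and after croton oil (-0.71 ± 0.13). Of 18 clade B serpins, 3 were higher and 4 lower in LC-DTR ears and 7 higher and 3 lower in LC-DTA ears. In LC-DTA ears 4 were higher and 3 lower under vehicle, and 10 higher and 2 lower after croton oil. Of 6 secreted serpins of clades C to I, 1 was higher and 2 lower with croton oil in each genotype. Serpinf1, pigment epithelium-derived factor, was among those lower, by -0.37 ± 0.15 in LC-DTR (limma adjusted p = 0.0476) and -0.72 ± 0.15 in LC-DTA ears (limma adjusted p = 0.000926). In LC-DTA ears 4 of the 6 were higher under vehicle and 4 after croton oil.

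Marker lists of the cells an ear can hold were counted in the same way, with calls for croton oil in LC-DTR and LC-DTA and then for genotype under vehicle and after croton oil. Of 8 epidermal keratinocyte markers, 6 were lower and 1 higher in LC-DTR, 4 lower and 2 higher in LC-DTA, 2 lower between genotypes under vehicle, and 2 higher and 1 lower after croton oil. Of 7 hair follicle markers tested, 5 and 4 were lower with croton oil and 0 and 1 lower in LC-DTA. Fibroblast markers were 1 higher in LC-DTR and 3 lower in LC-DTA with croton oil, and neutrophil markers differed between genotypes in 1 higher and 1 lower under vehicle and 2 higher and 2 lower after croton oil. Of 8 mast cell markers, 1 was higher and 1 lower in LC-DTR, 1 higher and 4 lower in LC-DTA, and 7 and 5 higher in LC-DTA ears. Of 6 macrophage and monocyte markers, 1 was higher in LC-DTR, 3 higher and 2 lower in LC-DTA, and 4 and 5 higher in LC-DTA ears. Of 7 endothelial markers, 2 were higher and 1 lower, 5 lower, 4 higher, and 2 higher and 1 lower in this order. Of 6 ear cartilage markers tested, 1 was higher and 2 lower, 2 lower, 2 higher and 2 higher. Of 3 T cell markers tested, 2 were lower with croton oil in each genotype and 1 lower in LC-DTA under each treatment. Skeletal muscle markers had 3 of 7 lower with croton oil in LC-DTA and 1 lower in LC-DTA after croton oil, adipocyte markers 1 of 6 lower in LC-DTR and 1 higher in LC-DTA after croton oil, and hepatocyte markers 1 of 3 higher in LC-DTR and 2 lower in LC-DTA after croton oil. Their parts in the levels of the copies were not tested.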

How the data were processed

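Whole ear mRNA was sequenced from 14 samples. A Qiagen RNeasy kit and the Illumina TruSeq Stranded mRNA preparation were used, per the labels' protocols. HISAT2, featureCounts, Subread and cutadapt, and the build mm10, appear without versions in the submitters' processing notes. The authors deposited 1 TPM value per gene and sample. Not stated in these sources are the annotation, the strand setting and what was done with reads that fit several genes. Depth cannot be recovered from TPM, so values carry no counting interval. Of 24062 rows, 27 named as dates were left out (0.124 to 0.145% of TPM), and every sample column was matched to its sample.

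On the log2(TPM + 1) scale, the deposited values entered 1 limma model (version 3.58.1, R 4.3.3) of 4 group means over 14 samples, with a mean-variance trend. Genes needed at least 1 TPM in at least 3 samples, which 9342 did not have. Two-sided p-values of 5 comparisons were adjusted by the Benjamini-Hochberg method over all 14693 genes tested, with a threshold of 0.05. A fold change on this scale understates that of low genes. Shared runs, loop identity and promoter identity were computed with Python 3.11.15, pandas 2.3.3 and biopython 1.88 from GENCODE M21 transcripts and RefSeq promoters, and figures with matplotlib 3.10.9.

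The members, gene lists (20, with 221 entries, of which 214 were found), named genes and tests were chosen with earlier results of these data known. Every member is named. For a list, up to 4 called genes with the lowest p in a comparison could be named, and for the 3 most abundant copies the 3 genes with the most similar pattern. Some results are not reported here. Alternatives were other pseudocounts, filters, scalings and limma settings, a replicate block, a fit on only the compared groups, linked copies summed, LC-DTA croton oil samples 3 and 4 left out, and each sample left out in turn.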

Additional observations from a re-analysis of the deposited data

Results flagged for a closer look

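The response to croton oil differed between the genotypes for 5 of the 10 copies, by the test of the difference itself (LC-DTA minus LC-DTR, log2 scale), where 23.1% of all genes tested were called and 12.6% were called lower. It was -2.51 for Serpina3c, -2.68 for Serpina3m, -1.93 for Serpina3k, -1.64 for Serpina3n and -0.88 for Serpina3h. Of the 20 groups of 4 samples looked at for a sample far from the others, 0 had one by a limit that chance passes in about 1 of 20 groups. These were the 10 copies in the croton oil groups, so the same samples recur, and the vehicle groups were not looked at. The limit cannot find a group that divides into pairs, as LC-DTR croton oil did for some copies.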

How the results depend on the processing

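Of 30 called differences of copies, 23 kept their direction and their side of the threshold under every alternative run for them, and 0 reversed. There were 28 alternatives for 5 of the copies, 27 for the other 4 that were summed when linked, and 26 for Serpina3k, which also fell below the filter of 5 TPM. The exceptions were Serpina3c between genotypes under vehicle, Serpina3g between genotypes after croton oil, Serpina3j and Serpina3k with croton oil in LC-DTA, Serpina3h in the difference of responses, and, without LC-DTR croton oil samples 1 and 4, Serpina3k with croton oil in LC-DTR (0.78) and Serpina3i between genotypes after croton oil (-0.36). Leaving out those samples, or samples 2 and 3, was chosen after seeing the data. Leaving out 1 sample in turn, the number of copies called was 8 to 8 for croton oil in LC-DTR, 4 to 7 in LC-DTA, 2 to 4 between genotypes under vehicle, 7 to 8 after croton oil and 4 to 6 for the difference of responses. With linked copies summed, 5 were called between genotypes after croton oil, because fewer items were tested. Without LC-DTR croton oil samples 2 and 3, 8 were called for the difference of responses, and the cause was not tested. The same leave-out brought Serpina3g with croton oil in LC-DTR (0.69) and Serpina3f between genotypes after croton oil (-0.93) past the threshold. Reversed differences were all uncalled. For Serpina3f in the difference of responses they were -0.062 with pseudocount 5, -0.26 without LC-DTA croton oil samples 3 and 4, -0.65 without LC-DTR croton oil samples 2 and 3, and -0.26 to 0.36 leaving out single samples. For Serpina3j with croton oil in LC-DTR they were 0.021 with median ratio scaling, 0.61 without LC-DTR croton oil samples 2 and 3, and -0.51 to 0.21 leaving out single samples. Without LC-DTR croton oil samples 1 and 4, Serpina3g with croton oil in LC-DTR was -0.49, Serpina3f between genotypes after croton oil 0.57, Serpina3g in the difference of responses 0.21 and Serpina3i in it 0.10. Leaving out single samples, Serpina3g with croton oil in LC-DTR was -0.10 to 0.31 and Serpina3f between genotypes after croton oil -0.54 to 0.078. Rescaling by the median ratio moved the median of all genes between genotypes under vehicle from 0.10 to -0.01. The replicate numbers in the labels did not pair the samples (correlations of same-numbered samples from -0.32 to 0.13). With them as a replicate block, 8, 6, 3, 7 and 5 copies were called in the 5 comparisons, Serpina3c under vehicle (0.36) and Serpina3g after croton oil (-0.65) lost their call, and Serpina3k under vehicle gained one (0.71). The depth behind the TPM is unknown, which limits what can be said of the copies near 1 TPM.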
